A study of Homo sapiens with 6 samples.

Results

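Transcripts of 49 human genes of homologous recombination, the Fanconi anemia pathway, mismatch repair and the DNA damage checkpoint were followed in riluzole-treated breast cancer cells. The genes were taken from a fixed list and looked up by their symbol in the deposited array table, where all 49 were found among 30818 named genes. Of them 44 had a probe that was detected on at least 3 of the 6 arrays and were tested, against 14887 genes tested in all. They comprised 21 genes of the recombination machinery, 10 Fanconi genes, 4 mismatch repair genes, 12 checkpoint genes and 2 poly(ADP-ribose) polymerases.

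Homologous recombination mends broken chromosomes by copying the intact sister chromatid. BRCA1 with BARD1 and the MRE11-RAD50-NBN complex act at the broken ends, PALB2 and BRCA2 prepare the strand for invasion, and the BLM helicase with RMI1 resolves the joined molecules. The Fanconi pathway unhooks cross-linked DNA strands: a core complex with the ubiquitin ligase FANCL modifies FANCD2 and FANCI, which then recruit nucleases. The kinases ATM and ATR sense breaks and stalled forks and pass the signal to CHEK2 and CHEK1, and mismatch repair proteins correct replication errors. Many of these genes are known to be transcribed most in S and G2 phase of dividing cells.

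MDA-MB-231 is an established line from a triple-negative breast cancer, one that lacks hormone receptors and HER2 amplification. The cells were exposed to riluzole at 25 µM, a glutamate release inhibitor given to patients with amyotrophic lateral sclerosis, or to its solvent DMSO as vehicle, and the series asks which genes differ between these treatments. The sample labels give 24 hours of exposure and the series title an overnight one. Each group had 3 samples, each read on 1 single-colour Illumina bead array, and the labels do not say whether the samples came from separate cultures, so the p-values reflect the scatter of these samples alone, and that scatter may be technical. By the labels both groups grew in the same medium.

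Per array 20516 to 20959 probes were detected, and the median raw signal was 127 to 133. Pairs of arrays of 1 group correlated at 0.992 to 0.994 and pairs across groups at 0.989 to 0.991; these are correlations across genes, and genes are not independent replicates. Of 7 markers of the mesenchymal-like line 6 were detected on all 6 arrays and SPARC on none. ESR1, PGR, FOXA1, PTPRC, CD3E and CDH5, markers of hormone-responsive epithelium, leukocytes and endothelium, were detected on no array and CDH1 on 1, while ERBB2, GATA3, EPCAM, KRT8, KRT18, CD14 and PECAM1 were detected on all 6. None of the markers tested passed the threshold; KRT18, a keratin of simple epithelium, came nearest, with -0.80 on the log2 scale (adjusted p = 0.0635 by limma), and PECAM1 at 0.42 and AXL at -0.40 were the next in size. Their part in the results below was not tested.

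None of the 44 tested repair and checkpoint genes passed an adjusted p of 0.05 in either direction. Over all genes 1.18% passed, 0.752% higher and 0.430% lower with riluzole, in limma's moderated test with Benjamini-Hochberg adjustment. The genes nearest to the threshold were EXO1, MSH6 and TOPBP1, each lower with riluzole by 1.40-fold to 1.47-fold. At an unadjusted p under 0.05, 10 of the 44 stood out (22.7%), 3 higher and 7 lower. Of all genes 16.3% did, 8.87% higher and 7.45% lower. The groups of 3 arrays did not overlap for 14 of the 44 (31.8%), 5 higher and 9 lower. They did not for 22.7% of all genes, 11.8% higher and 11.0% lower. Both counts of lower members hold BRIP1, which was tested only because of its vehicle arrays and was not above background with riluzole. Without it 9 of 43 stood out at the unadjusted p (20.9%), 6 of them lower, and 13 of 43 did not overlap (30.2%), 8 of them lower.

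In the reported analysis no tested member had a fitted difference as large as 1.5-fold, and 3.30% of all genes did. Under other settings 3 members passed that size: MSH6 at a log2 fold change of -0.65 without vehicle replicate 3, EXO1 at -0.62 with averaged probes and BRIP1 at -0.82 with the authors' processed values. For 37 of the 44 (84.1%) the 95% interval of the fold change lay wholly within 1.5-fold in either direction, as it did for 71.8% of all genes. The median log2 fold change (log2 of riluzole over vehicle, so that negative values are lower with riluzole) was -0.07 over the 44 members, 26 of them negative and 18 positive. It was -0.04 for the recombination genes, 0.01 for the Fanconi genes, 0.00 for mismatch repair and -0.20 for the checkpoint genes. Over all genes tested it was 0.00. With 1 array left out the members' median ran from -0.061 to -0.019. It was -0.033 without vehicle replicate 1, -0.019 without vehicle replicate 2 and -0.044 without riluzole replicate 2. These medians describe the lists and carry no test. In RNA from a whole culture, fewer cells in a given cell cycle phase and less RNA per cell cannot be told apart.

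**Figure D1:**
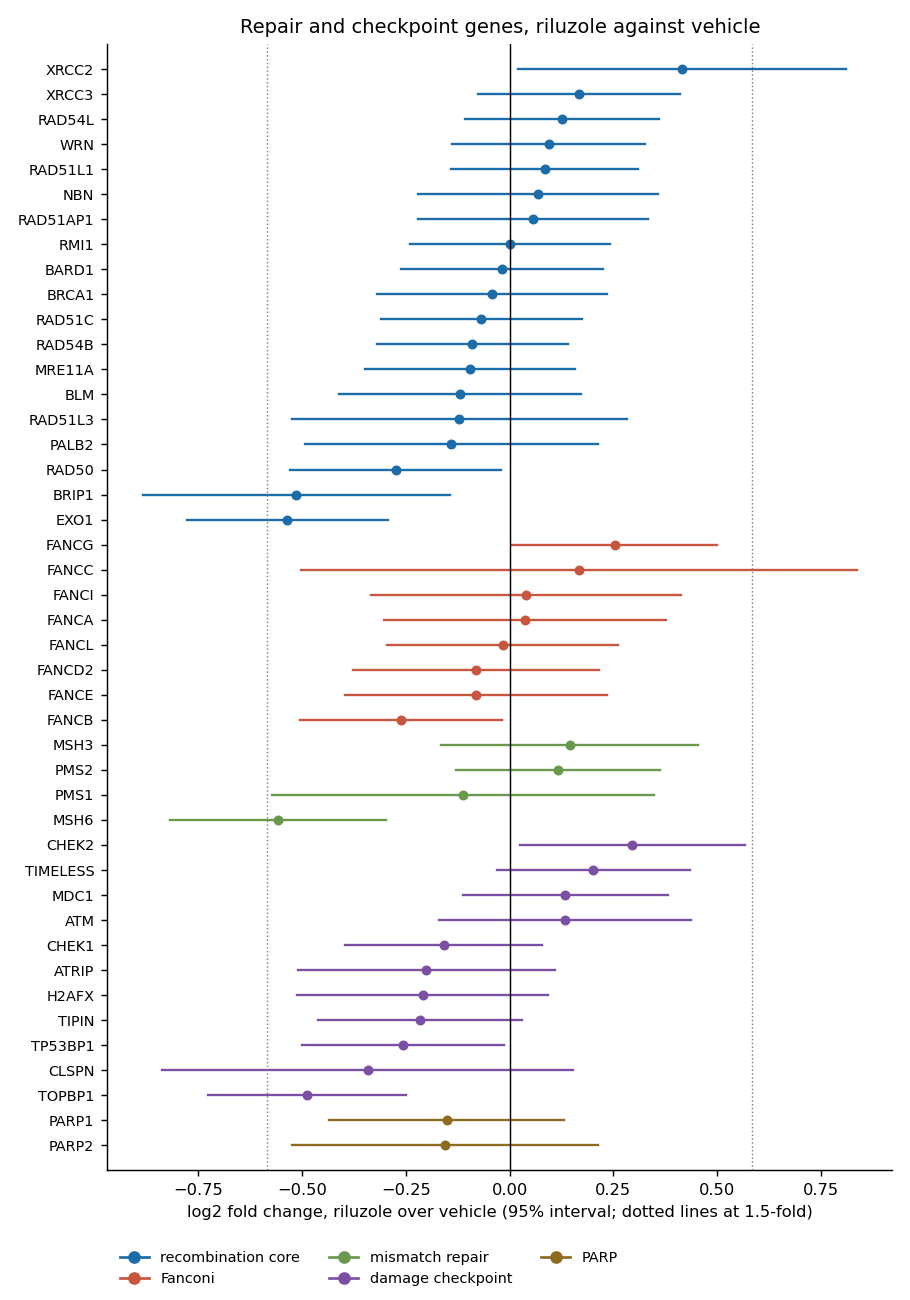
Log2 fold change of the 44 tested members (points, riluzole over vehicle) with the 95% interval of the limma fit (lines), coloured by role, n = 3 arrays per group. The dotted lines mark a 1.5-fold difference in either direction; no point lies beyond them, and EXO1, MSH6, TOPBP1 and BRIP1, whose fitted value is no bound, lie farthest to the left.

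EXO1, the exonuclease that resects broken ends and excises mismatched strands, read 9.75, 9.67 and 9.86 normalized log2 units on the vehicle arrays and 9.14, 9.24 and 9.31 on the riluzole arrays. All riluzole arrays were below all vehicle arrays. The fold was 1.45 lower (95% interval 1.23 to 1.71, adjusted p = 0.0569). Of its 3 probes a further one was detected on all arrays and gave -0.71 on the log2 scale, with the same sign (limma, adjusted p = 0.0632 in the fit over probes).

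MSH6, a mismatch-binding protein, read 12.16, 12.30 and 11.98 with vehicle and 11.55, 11.60 and 11.62 with riluzole. The riluzole arrays lay close together (SD 0.03, n = 3) and all below the vehicle arrays (SD 0.16). The fold was 1.47 lower (1.23 to 1.76, adjusted p = 0.0634), the largest difference among the members with both groups detected. TOPBP1, the scaffold that activates ATR, read 10.47, 10.70 and 10.57 with vehicle and 10.05, 10.12 and 10.10 with riluzole. Its groups did not overlap either, and the fold was 1.40 lower (1.19 to 1.65, adjusted p = 0.0721). MSH6 and TOPBP1 were each read by 1 probe.

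Whether these 3 genes passed the threshold depended on the settings. All 3 passed as lower with quantile normalization and no background correction, with detection required on all 6 arrays at p under 0.01, and where the variance model was robust and followed intensity. In those settings 3.78%, 3.03% and 4.44% of all genes tested passed, and 1.5%, 1.32% and 1.80% passed as lower. EXO1 also passed when a gene's detected probes were averaged (limma, adjusted p = 0.0446), where 0.490% of all genes passed as lower. None of the 3 passed in any of the 6 fits with 1 array left out, where the adjusted p was between 0.0946 and 0.185.

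**Figure D2:**
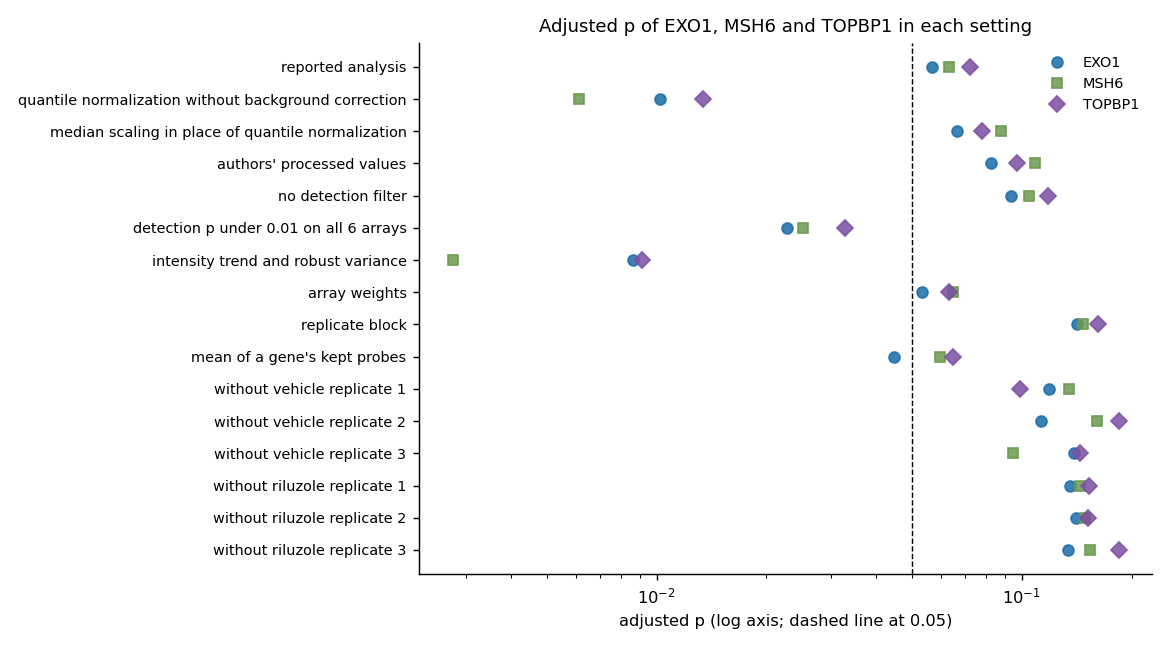
Adjusted p of EXO1, MSH6 and TOPBP1 (log axis) in the reported analysis, in 9 other settings and with each array left out. The dashed line is the threshold of 0.05; in 3 settings all 3 genes lie left of it, and in a further one EXO1 does.

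Promoters are shown because E2F-type letters are frequent near the start sites of repair genes. RefSeq promoter windows of GRCh38.p14, from 250 bases before to 50 after each listed start, were matched for 45 of the 49 members; NBN, RAD54B, WRN and FANCI have no entry. The stretch from 60 bases before the first listed start to 30 from it on is printed 5′ to 3′ on the gene's strand. It is given for the 3 genes nearest to the threshold and for XRCC2 and FANCG, which read higher with riluzole. MSH6 has 4 listed starts and EXO1 has 2, and their E2F-type letters were found only in the window of the start printed. Capitals mark an E2F-type match on either strand.
MSH6 (chr2:47783085-47783174, plus strand): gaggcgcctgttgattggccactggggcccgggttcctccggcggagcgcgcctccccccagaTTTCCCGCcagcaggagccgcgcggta
EXO1 (chr1:241848144-241848233, plus strand): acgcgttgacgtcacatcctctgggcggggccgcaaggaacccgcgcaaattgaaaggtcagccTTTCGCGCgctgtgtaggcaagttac
TOPBP1 (chr3:133661912-133662001, minus strand): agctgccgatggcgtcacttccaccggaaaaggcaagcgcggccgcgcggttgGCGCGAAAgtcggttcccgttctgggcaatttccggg
XRCC2 (chr7:152676112-152676201, minus strand): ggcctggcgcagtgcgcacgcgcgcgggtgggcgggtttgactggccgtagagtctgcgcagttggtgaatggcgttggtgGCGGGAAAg
FANCG (chr9:35079913-35080002, minus strand): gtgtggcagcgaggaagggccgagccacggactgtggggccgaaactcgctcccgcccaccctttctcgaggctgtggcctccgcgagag

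The E2F-type letters searched were TTTCCCGC, TTTGGCGC, TTTCGCGC and TTTGCCGC, on both strands. They were found in a window of 12 of the 45 members (26.7%) and of 1090 of 27305 genes in the table (3.99%). Both shares cover genes tested here or not. Among tested genes with an entry 638 held the letters and 8822 did not, and among tested members 12 and 28. The 12 were CLSPN, EXO1, FANCA, FANCC, FANCD2, MSH3, MSH6, PMS2, RMI1, TIPIN, TOPBP1 and XRCC2. The letters TTTGAA and TTCGAA, a cell cycle homology region, were in a window of 13.3% of the members and 19.5% of all genes, and CCAAT in 55.6% and 39.7%; no searched motif contains another. Of the 12 with them 6 had a negative log2 fold change and 6 a positive one (median -0.04), and of the 28 tested members without them 19 were negative (median -0.09). This split was made after the values were seen, and the difference was not tested. Over all tested genes with an entry the median was 0.01 with the letters (638 genes) and 0.00 without (8822 genes). A match is no evidence of binding, and genes without one may hold other forms of the site.

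Among the genes that process broken ends, RAD50, the structural ATPase of the MRE11 complex, read 9.25, 9.48 and 9.52 with vehicle and 9.10, 9.20 and 9.13 with riluzole. The groups did not overlap, and the log2 fold change was -0.27 (95% interval -0.53 to -0.02, adjusted p = 0.269). Its partners MRE11A, the nuclease now named MRE11, and NBN, the adaptor that calls ATM, had log2 fold changes of -0.10 and 0.07, with overlapping groups. The other detected probe of NBN gave 0.29 (limma, adjusted p = 0.295 in the fit over probes). On it the riluzole arrays (7.13, 7.44 and 7.20) were all above the vehicle arrays (6.94, 7.06 and 6.89). The 2 further probes of MRE11A gave 0.02 and -0.24. BRCA1, the ubiquitin ligase that favours recombination, read 8.63, 8.50 and 8.70 with vehicle and 8.38, 8.69 and 8.64 with riluzole on its brightest probe. These groups overlapped in part, and the log2 fold change was -0.04 (-0.32 to 0.23, adjusted p = 0.915). Its 2 other detected probes each gave -0.36, with adjusted p over probes of 0.216 and 0.637 (limma), so the BRCA1 value differed by probe. The dimmer of these was detected on 2 vehicle and 3 riluzole arrays, and its interval was wide (-1.07 to 0.34). On the brighter of these the riluzole arrays (7.65, 7.66 and 7.50) were all below the vehicle arrays (8.13, 7.95 and 7.81). BARD1, the partner of BRCA1, had a log2 fold change of -0.02.

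BRIP1, the helicase that binds BRCA1, passed detection on each of the 3 vehicle arrays but on no riluzole array. It read 6.32, 6.0 and 5.70 with vehicle, and passed the detection filter through those arrays alone. Its signals with riluzole, 5.41, 5.46 and 5.60, were not above background, so that its p rests on background signal there. On this scale a bound set from the group means put BRIP1 1.32-fold lower, without allowance for the scatter of the vehicle arrays. The limma fit gave 1.43-fold lower (interval 1.10 to 1.85, adjusted p = 0.169), and that interval too rests on background signal with riluzole. It reaches below the bound, so a smaller difference is not excluded. Without background correction the fitted log2 fold change of BRIP1 was -0.23, a smaller difference than that bound. For this bound each riluzole array was given the larger of BRIP1's signal and the dimmest detected probe's, and the mean of these was set against the vehicle mean.

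PALB2, the bridge between BRCA1 and BRCA2, read 7.64, 7.93 and 8.08 with vehicle and 7.95, 7.54 and 7.75 with riluzole, with overlapping groups (log2 fold change -0.14, interval -0.49 to 0.21, adjusted p = 0.722). BRCA2 and the annealing factor RAD52 were detected on no array. RAD51C, which acts in strand exchange, read 11.20, 11.27 and 11.04 with vehicle and 11.16, 11.05 and 11.09 with riluzole. Its log2 fold change was -0.07 (-0.31 to 0.17, adjusted p = 0.819), and its 2 further detected probes gave 0.08 and 0.05. RAD51L1 and RAD51L3, now RAD51B and RAD51D, were at 0.08 and -0.12, also with overlapping groups. Their further detected probes gave -0.15 and -0.41, the latter with an adjusted p of 0.285 in limma's fit over probes, and the averaged probes -0.03 and -0.27. The further probe of RAD51L1 was near background and detected on 2 vehicle arrays and 1 riluzole array.

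XRCC2, a further gene of strand exchange, had the highest log2 fold change of the members, 0.42 (0.02 to 0.81, adjusted p = 0.281). It read 10.26, 10.29 and 10.36 with vehicle and 11.11, 10.41 and 10.65 with riluzole. All riluzole arrays were higher, but their SD of 0.36 was large beside 0.05 with vehicle, and without riluzole replicate 1 the log2 fold change was 0.22. Its dimmer probe, near background and detected on 2 of the 3 riluzole arrays, gave -0.23 (limma, adjusted p over probes = 0.643). The mean of the probes gave 0.09. XRCC3, which also acts in strand exchange, read 9.22, 9.37 and 9.20 with vehicle and 9.47, 9.32 and 9.50 with riluzole, with overlapping groups (log2 fold change 0.17, adjusted p = 0.493).

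RAD54L, a motor protein that helps the broken strand invade the intact duplex, read 8.98, 8.99 and 8.83 with vehicle and 9.0, 9.13 and 9.06 with riluzole. The groups just failed to overlap, at a log2 fold change of 0.13 (-0.11 to 0.36, adjusted p = 0.601). The related RAD54B was at -0.09 and RAD51AP1 at 0.06. The helicases BLM and WRN were at -0.12 and 0.09, and RMI1, which anchors BLM, at 0.00. The groups of these 5 genes overlapped. Further detected probes of WRN and RMI1 gave -0.23 and -0.16, that of WRN near background and detected on 2 of the 3 riluzole arrays.

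**Figure D3:**
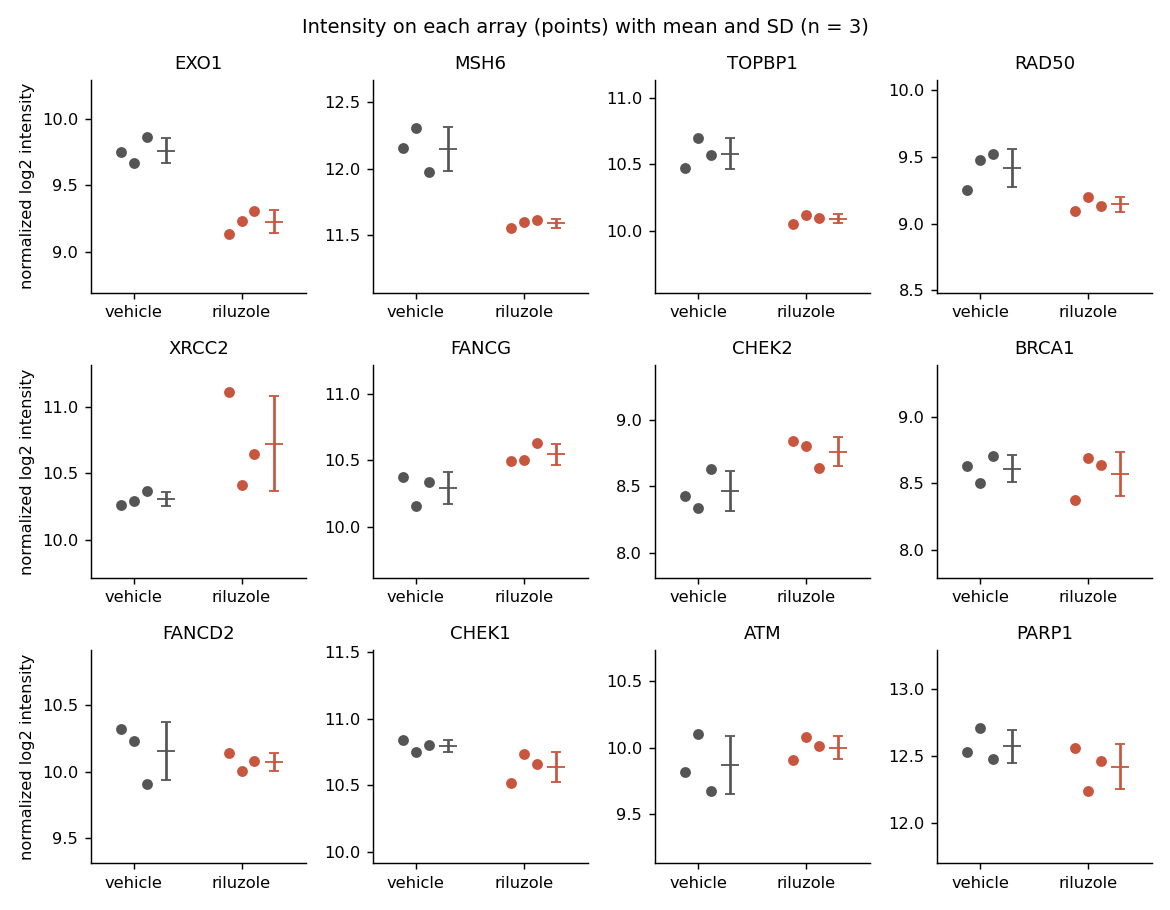
Normalized log2 intensity of 12 members on each array (points, 3 per group) with mean and SD beside them; every panel spans 1.6 log2 units. EXO1, MSH6, TOPBP1 and RAD50 lie lower and XRCC2, FANCG and CHEK2 higher on all riluzole arrays, CHEK2 by a hair on 1 array, whereas BRCA1, FANCD2, ATM and PARP1 overlap.

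The 8 tested Fanconi genes lay on either side of 0, 4 above and 4 below. FANCD2, which the core complex modifies, read 10.32, 10.23 and 9.91 with vehicle and 10.14, 10.01 and 10.08 with riluzole. The riluzole arrays lay inside the vehicle range (log2 fold change -0.08, interval -0.38 to 0.22, adjusted p = 0.825). The dimmer probe of FANCD2, near background and detected on 1 vehicle and 3 riluzole arrays, gave 0.23. Its partner FANCI read 9.23, 9.51 and 8.93 with vehicle and 9.18, 9.45 and 9.16 with riluzole, again inside that range (0.04, interval -0.33 to 0.41, adjusted p = 0.947).

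Within the core complex FANCB and FANCG had fold changes of opposite sign. FANCB read 8.10, 8.13 and 8.08 with vehicle and 7.84, 7.97 and 7.71 with riluzole, without overlap (log2 fold change -0.26, interval -0.51 to -0.02, adjusted p = 0.270), and its other probe gave -0.24. FANCG read 10.37, 10.15 and 10.34 with vehicle and 10.49, 10.50 and 10.63 with riluzole, also without overlap (0.25, interval 0.01 to 0.50, adjusted p = 0.296). Neither passed the threshold.

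FANCC was the least precise of the members: it read 7.07, 6.15 and 6.08 with vehicle and 6.15, 6.97 and 6.68 with riluzole. The interval of its log2 fold change of 0.17 ran from -0.50 to 0.84. The core subunits FANCA, FANCE and FANCL were at 0.04, -0.08 and -0.02. A dimmer probe of FANCA, near background and detected on 1 vehicle array and 2 riluzole arrays, gave 0.35. FANCF, an adaptor of the core complex, and FANCM, the translocase that recruits it, were detected on no array.

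In mismatch repair MSH6 stood apart from the other members. MSH3, which recognises insertion and deletion loops, read 15.06, 14.70 and 14.71 with vehicle and 15.06, 14.81 and 15.02 with riluzole on its brightest probe, with overlapping groups (log2 fold change 0.14, interval -0.16 to 0.45, adjusted p = 0.665). Its other probe gave -0.07. PMS1 and PMS2, homologs of the endonuclease subunit, were at -0.11 and 0.12, and their groups overlapped. A difference between MSH6 and MSH3 in their response was not tested.

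Among the checkpoint kinases ATM read 9.82, 10.10 and 9.68 with vehicle and 9.90, 10.08 and 10.01 with riluzole. The groups overlapped (log2 fold change 0.13, interval -0.17 to 0.44, adjusted p = 0.687), and a further detected probe gave -0.03. ATR was not detected on any array with any of its 4 probes. CHEK1, the kinase downstream of ATR, read 10.84, 10.75 and 10.80 with vehicle and 10.52, 10.73 and 10.66 with riluzole. These groups did not overlap, but by little (-0.16, interval -0.40 to 0.08, adjusted p = 0.505).

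CHEK2, the kinase downstream of ATM, read 8.42, 8.34 and 8.63 with vehicle and 8.84, 8.80 and 8.63 with riluzole. The highest vehicle and the lowest riluzole array were equal to 2 decimals. The log2 fold change was 0.30 (0.02 to 0.57, adjusted p = 0.265), and the other detected probe gave 0.12. Neither kinase passed the threshold.

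The fork protection pair TIMELESS and TIPIN, whose proteins bind each other, had fold changes of opposite sign. TIMELESS read 10.31, 10.16 and 10.35 with vehicle and 10.46, 10.52 and 10.45 with riluzole, without overlap (0.20, interval -0.03 to 0.43, adjusted p = 0.376). TIPIN read 9.26, 9.27 and 9.34 with vehicle and 9.20, 8.94 and 9.07 with riluzole, also without overlap (-0.22, interval -0.46 to 0.03, adjusted p = 0.369). CLSPN, the adaptor that brings CHEK1 to ATR, read 6.49, 5.89 and 6.47 with vehicle and 5.66, 6.32 and 5.83 with riluzole. Its arrays spread widely in both groups (-0.34, interval -0.84 to 0.15, adjusted p = 0.490).

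Of the proteins that mark and read damaged chromatin, TP53BP1, which restrains end resection, read 8.90, 8.87 and 8.91 with vehicle and 8.74, 8.68 and 8.49 with riluzole. Its vehicle arrays were tight (SD 0.02) and all above the riluzole arrays (log2 fold change -0.26, interval -0.50 to -0.01, adjusted p = 0.279). H2AFX, the histone variant now named H2AX, read 11.25, 11.44 and 11.58 with vehicle and 11.32, 11.02 and 11.30 with riluzole, with overlap (-0.21, interval -0.51 to 0.09, adjusted p = 0.490). MDC1, which binds the phosphorylated histone, read 10.54, 10.68 and 10.61 with vehicle and 10.67, 10.88 and 10.68 with riluzole, with overlap (0.13, adjusted p = 0.600). ATRIP, the partner of ATR, was at -0.20 on its brightest probe and 0.11 on the other.

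PARP1, the main sensor of nicked DNA, read 12.53, 12.71 and 12.48 with vehicle and 12.56, 12.24 and 12.46 with riluzole. The groups overlapped (-0.15, interval -0.44 to 0.13, adjusted p = 0.609). PARP2 was at -0.16, with overlapping groups and a further probe at -0.10.

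The 5 members that were not tested, BRCA2, RAD52, FANCF, FANCM and ATR, had 9 probes between them. Their raw signals were between 81.7 and 137, and the negative control probes averaged 107 to 111 per array. No statement on riluzole can be made for these genes at this sensitivity.

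Several probes were detected for 18 members. Their fold changes had 1 sign in 8 of them (BRCA1, CHEK2, EXO1, FANCA, FANCB, NBN, PARP2 and RAD51L3). Signs were mixed in 10 (ATM, ATRIP, FANCD2, MRE11A, MSH3, RAD51C, RAD51L1, RMI1, WRN and XRCC2). For FANCD2, RAD51L1, WRN and XRCC2 the dimmer probe was not detected on every array. Its mean was 5.72 to 5.82 log2 units, where the dimmest detected probe of an array was at 5.59 to 5.63. The signs of these probes therefore rest on signal near background. BRCA1 and FANCA also had a kept probe that was not detected on every array. Of the 65 detected probes of all members 0 passed an adjusted p of 0.05 over probes, where 0.698% of all kept probes did.

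**Figure D4:**
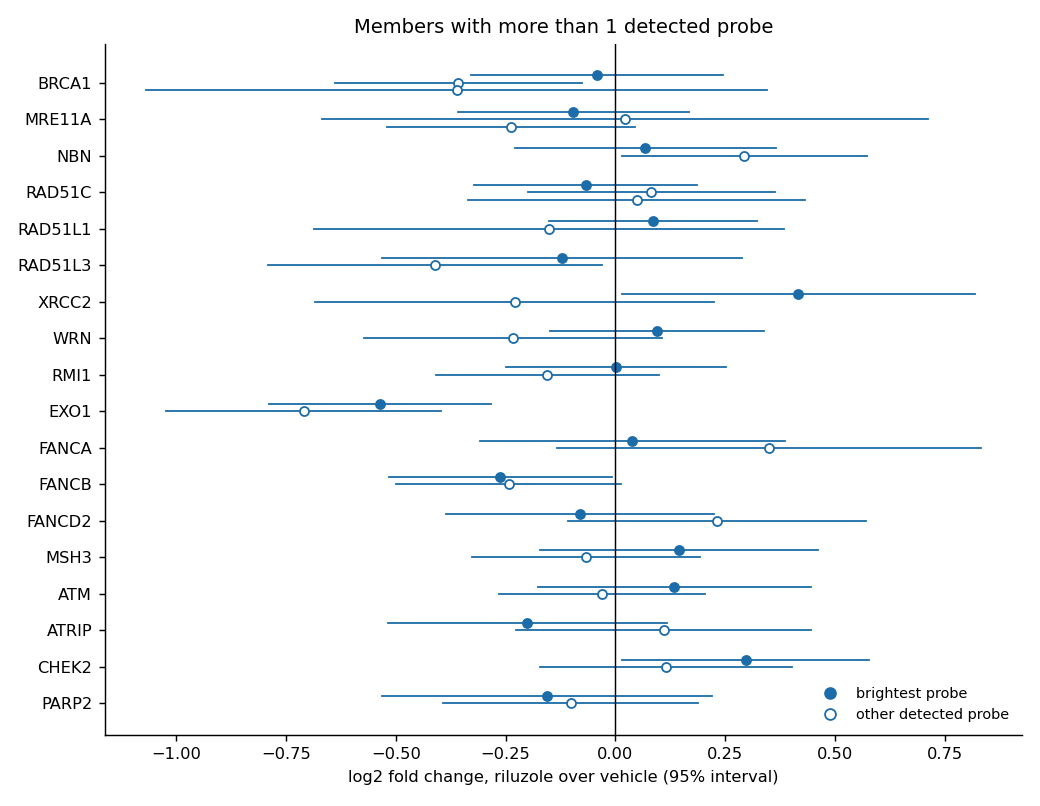
Log2 fold change with 95% interval for each detected probe of the 18 members with several, the brightest probe filled and the others open. The probes of EXO1 and FANCB lie together on the negative side, and those of XRCC2 lie on opposite sides of 0, the dimmer one near background.

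Other genes of these pathways were counted from a list of 53, of which 50 were tested. Of them 1 was called higher and 0 lower, with a median log2 fold change of 0.03. Over all genes 0.752% were called higher and 0.430% lower. The called gene was EME1, which forms a structure-specific nuclease with MUS81. It read 7.48, 7.62 and 7.75 with vehicle and 8.29, 8.23 and 8.29 with riluzole, and rose 1.57-fold (95% interval 1.33 to 1.87, adjusted p = 0.0386). The EME1 call was lost in all 6 fits with 1 array left out (adjusted p 0.0797 to 0.120), with the authors' processed values (0.0577), without a detection filter (0.0613) and with the replicate number as a block (0.123). Of 14 tested end joining genes and 26 tested excision repair genes 0 were called by limma, where 1.18% of all genes were. At an unadjusted p under 0.05 they held 4 and 7, where 16.3% of all genes passed. Their medians were 0.00 and 0.03.

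The members were set beside the gene classes of S phase and mitosis. Of 40 replication genes 2 were called lower and 0 higher (median log2 fold change -0.20). Of 35 mitosis genes 14 were called higher and 0 lower (median 0.54). Over all genes tested 0.752% were called higher and 0.430% lower. The lists were chosen with earlier results of these data known. Replication genes were negative in 36 of 40 and mitosis genes positive in 32 of 35, while the members were negative in 26 of 44. The checkpoint genes had the same median to 2 decimals as the replication genes, but with 4 of 11 positive. That checkpoint median is the value of ATRIP on its brightest probe, and the other probe of ATRIP gave 0.11. The 16 tested p53 targets, which respond to DNA damage, held 0 calls, 3 at an unadjusted p under 0.05 and a median of 0.06. Of all genes tested 16.3% had an unadjusted p under 0.05. Differences between these lists were not tested, and their part in the members' values was not tested.

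**Figure D5:**
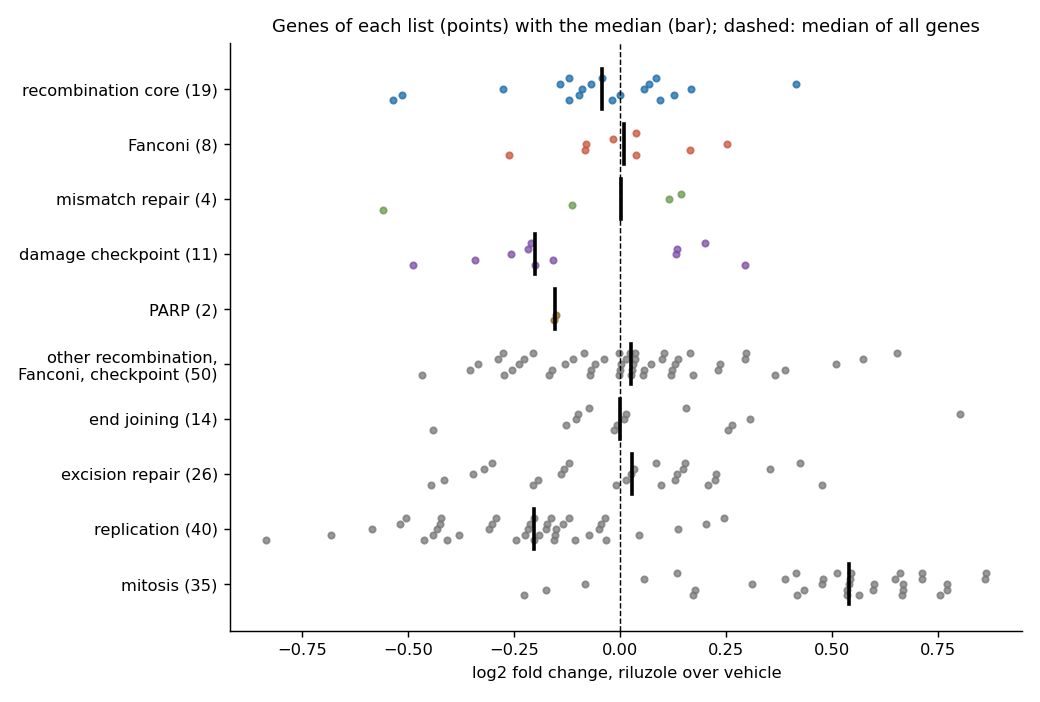
Log2 fold change of each tested gene (points) by list, with the list's median (bar) and the number tested in brackets; the dashed line is the median of all genes. The recombination, Fanconi and mismatch repair genes and the other repair lists lie on either side of 0, the checkpoint and replication genes mostly below it, both PARP genes below it and the mitosis genes mostly above it.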

How the data were processed

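Per the file headers, the authors' main table holds the average bead signal of each probe, an intensity, and its detection p-value. Its values show no background subtraction. A second deposited table of intensities was processed by an unstated method and used as an alternative, floored at 16. The 979 control rows were left out. With limma 3.58.1 (R 4.3.3) the steps were normexp background correction from the detection p-values, an offset of 16, quantile normalization and log2 (neqc). The offset draws the folds of dim probes toward 1. Probes with detection p under 0.05 on at least 3 of 6 arrays were kept, and the brightest kept probe stood for a gene. A linear model with the group as its term was fitted over 14887 genes, with eBayes and Benjamini-Hochberg adjustment. Array symbols were updated through RefSeq names of GRCh38.p14. The number of arrays limits the precision.

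The members and lists were chosen with earlier results of these data known. Array values are given for the 10 tested members with the largest rise, the 10 with the largest fall and a fixed set of 13 genes, and the remaining members are given by their fold change. Alternatives were other background, scaling, filter, variance, weighting, probe and pairing choices and each array left out. The counts without BRIP1 were added after the data were seen.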

Additional observations from a re-analysis of the deposited data

How the results depend on the processing

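Over all genes 176 passed. The count was 563 without background correction, 94 with the authors' processed values, 70 without a detection filter, 360 with detection p under 0.01 on all 6 arrays, 661 with an intensity trend and robust variance, and 21 to 41 with 1 array left out. Of the members, 0 passed as higher in all of these settings. As lower, 3 passed without background correction (1.5% of all genes), 3 with the stricter detection (1.32%), 3 with the trend (1.80%) and 1 with averaged probes (0.490%, 197 genes in either direction), and 0 with 1 array left out. The members' median log2 fold change ran from -0.061 to -0.019 with 1 array left out. Single members changed sign in 34 of 655 values, over 17 members, and none of these values was past the threshold in either setting. The causes were not tested. Fits with 1 array left out had fewer arrays, and these fits and the stricter detection also tested fewer genes.

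With the replicate number as a block 22 genes and 0 members passed. Same-numbered deviations from the group means correlated at -0.15, -0.10 and 0.00, and differently numbered ones at -0.06 to 0.15. With 3 arrays per group these values cannot settle whether the numbers pair the samples, and the labels do not say.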
